A study of Sus scrofa with 22 samples.

Results

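The genes described here encode squalene epoxidase, SQLE, and the other enzymes that carry sterol synthesis from squalene production to cholesterol. They were taken by symbol from a list of 9, and 8 were found among the 24358 genes of each count file (FDFT1, SQLE, TM7SF2, MSMO1, NSDHL, HSD17B7, SC5D and DHCR7). LSS, which closes the ring of lanosterol, was not analysed here. The list was chosen by pathway with the diet contrasts of these same counts (TMM-scaled levels in the 3 diet groups) already known, so the differences of the enzymes between diet groups are given as descriptions with standard errors. Calls of the enzymes from the fits across all genes are counted once, beside the share of genes called, and nothing is read from them. Calls of ABCG1 and the number of genes called under other settings are also given, as descriptions. Covariation among pigs of the same group does not use those differences and was tested.

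RNA was sequenced from the mucosa of the jejunum, where the small intestine takes up most nutrients, in Ossabaw pigs, a breed prone to diet-induced metabolic disease. WD_S comprised 7 pigs on a Western pattern (butter fat, cholesterol, sugar and white flour, little fiber) with atorvastatin. HHD_S comprised 8 pigs on a heart healthy pattern (canola, soybean and corn oils, whole wheat, oats, fruit and vegetables, little cholesterol) with atorvastatin, and HHD comprised 7 pigs on the heart healthy pattern without the drug. Both patterns gave 38% of energy as fat for 6 months, and both heart healthy groups also received 1000 mg fish oil capsules 3 times a week, which is part of what separates them from WD_S. Atorvastatin, which inhibits an early step of cholesterol synthesis, was dosed at 20 mg/day for 3 months and then at 40 mg/day. The study used boars and gilts, and the labels used here give neither the sex nor the age of each pig. Pigs on the Western pattern without the drug were not analysed here, so WD_S over HHD_S contrasts diets under the drug, HHD_S over HHD contrasts drug and no drug on the heart healthy pattern, and WD_S over HHD differs in both. The series text ties the abbreviation in the WD_S titles to the Western pattern without drug, and the diet label of each sample, which names the statin, was followed.

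Cholesterol is built from acetyl-CoA by way of mevalonate and farnesyl pyrophosphate. FDFT1 joins a pair of farnesyl units into squalene, SQLE oxidises squalene to its epoxide in a step that limits the rate of the late pathway, and after ring closure a set of demethylases, reductases and desaturases turns lanosterol into cholesterol. When sterols run low in a cell, the transcription factor SREBP-2 (gene SREBF2) raises transcription of the genes of this pathway, and SQLE protein is itself degraded when cholesterol is plentiful, as worked out in cultured mammalian cells. The jejunum both makes cholesterol and absorbs it from the diet.

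Values below are CPM, unique exon reads scaled to a common library size, after TMM correction for library composition. They are not divided by gene length, so levels are compared between groups and not between genes. Total counts were 15.3 to 31.6 M per library, and 13626 genes, all 8 enzymes among them, passed the filter on low counts. The libraries came from 2 library pools, with WD_S holding 3 libraries in pool 3 and 4 in pool 4, HHD_S 5 and 3, and HHD 5 and 2. Pool 4 over pool 3 had 0 calls at an adjusted p of 0.05 in edgeR's quasi-likelihood test and 602 genes at an unadjusted p under 0.05, and SQLE had a log2 difference of -0.27 between pools. HHD_S pigs 3 and 8 stood apart on the third principal component, which held 9.53% of the variance, and SQLE values without them are given below. On the first component (22.8%) scores ran from -36.3 in WD_S pig 1 to 43.3 in HHD pig 7, with HHD_S pig 7 at 30.0. On the second (14.5%) HHD pig 7 and HHD_S pig 7 scored highest, at 38.7 and 34.6. Summed enterocyte markers (7 of 8 listed, among them VIL1, FABP2 and SI) lay at 21694 to 39775 CPM in WD_S, 16748 to 38278 CPM in HHD_S and 20381 to 34215 CPM in HHD, and no marker was at 0 in every library of a group. The bile acid carriers FABP6 and SLC10A2, which mark the distal small intestine, summed to a median of 1.78 CPM in WD_S, 1.65 CPM in HHD_S and 1.70 CPM in HHD, with highest values of 34.1 CPM, 2.23 CPM and 8.31 CPM in the same groups. The value of 34.1 CPM was that of WD_S pig 1. That pig was also the lowest of WD_S for SQLE, FDFT1, MSMO1, SC5D and DHCR7, and the highest of WD_S for TM7SF2 and NSDHL. A link between these values was not tested.

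SQLE, on chromosome 4 at 14669789 to 14700152 (Sscrofa11.1, RefSeq gene span), was the enzyme with the widest separation between diets. Its level was 2.39 CPM at the lowest, 3.98 CPM at the median and 8.54 CPM at the highest in WD_S, against 5.55, 10.2 and 23.0 CPM in HHD_S and 6.79, 10.8 and 17.2 CPM in HHD. All 7 WD_S pigs lay below the median of either heart healthy group, 5 of 7 lay below the lowest HHD_S pig and 6 of 7 below the lowest HHD pig. The groups nevertheless overlapped, through WD_S pigs 3 and 4, with 8.54 and 6.60 CPM, beside HHD_S pigs 8 and 6, with 5.55 and 6.55 CPM, and HHD pig 6, with 6.79 CPM. Mean levels were 4.49 ± 2.28 CPM in 7 WD_S pigs, 12.2 ± 6.03 CPM in 8 HHD_S pigs and 11.4 ± 3.27 CPM in 7 HHD pigs (± SD). These rest on 54 to 157 SQLE reads per library in WD_S, 119 to 528 in HHD_S and 193 to 422 in HHD.

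The log2 fold change of SQLE was -1.38 (SE 0.315) in WD_S over HHD_S, a level 0.385 times that of HHD_S. It was the sixth lowest of the 13626 genes tested in that contrast, a rank given as a description, since the list was chosen with this contrast known. In WD_S over HHD it was -1.28 (SE 0.321), or 0.411 times the HHD level. Both contrasts use the same WD_S pigs and are not separate evidence. In HHD_S over HHD it was 0.09 (SE 0.296), smaller than its standard error, so the order of levels was WD_S below the other groups, and HHD_S and HHD did not differ beyond their spread. Within pool 3 alone SQLE had a log2 fold change of -1.45 in WD_S over HHD_S, and within pool 4 alone -1.19. Without HHD_S pigs 3 and 8 it was -1.57. Leaving out WD_S pig 1 put SQLE at -1.13 in WD_S over HHD. In bulk mucosa, fewer cells that express a gene and less RNA per cell cannot be told apart, here and in every value that follows.

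**Figure D1:**
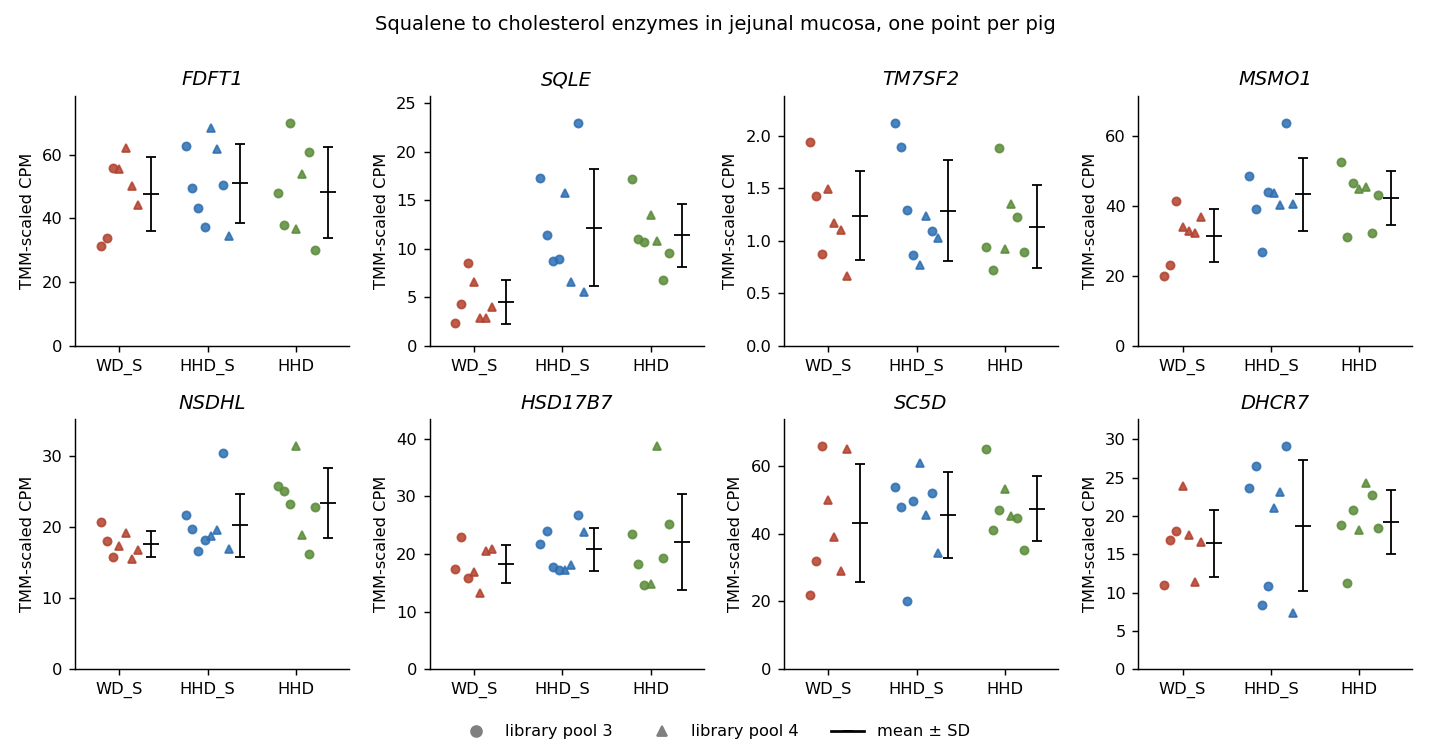
TMM-scaled CPM of the 8 enzymes in each pig (y axes, linear and starting at 0) by diet group, with circles for library pool 3, triangles for pool 4 and black bars for the mean ± SD. SQLE is the panel in which most WD_S points (2.39 to 8.54 CPM) sit under the HHD_S points (5.55 to 23.0 CPM), while the other panels overlap widely.

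FDFT1, the squalene synthase that feeds SQLE (chromosome 14, 14976259 to 15010701), had a level of 31.4, 50.2 and 62.2 CPM in WD_S (lowest, median and highest), against 34.6, 50.0 and 68.4 CPM in HHD_S and 30.0, 48.1 and 70.0 CPM in HHD. The 3 ranges covered nearly the same span. Its log2 fold change was -0.14 (SE 0.190) in WD_S over HHD_S and 0.06 (SE 0.188) in HHD_S over HHD, both smaller than their standard errors, and the first ran from -0.24 without HHD_S pig 8 to -0.05 without WD_S pig 1.

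TM7SF2, one of the reductases that act on the ring system after lanosterol demethylation (chromosome 2, 7076778 to 7081502), was the most sparsely counted enzyme, with 10 to 48 reads per library. It stood at 0.663, 1.17 and 1.94 CPM in WD_S (lowest, median and highest), against 0.772, 1.16 and 2.12 CPM in HHD_S and 0.720, 0.940 and 1.88 CPM in HHD. Its log2 fold change in WD_S over HHD_S, 0.02 (SE 0.255), changed sign when single pigs were left out, between -0.11 without WD_S pig 1 and 0.15 without WD_S pig 3. The standard error of TM7SF2 holds the spread between pigs as well as the noise of few reads, and no detection limit was computed.

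MSMO1, the methyl sterol oxidase that starts the removal of the paired methyl groups (chromosome 8, 43726834 to 43745784), had the second lowest log2 fold change of the 8. Its level was 19.9, 32.9 and 41.3 CPM in WD_S (lowest, median and highest), against 26.7, 42.1 and 63.8 CPM in HHD_S and 31.3, 44.9 and 52.5 CPM in HHD. All 7 WD_S pigs lay below both heart healthy medians, but only WD_S pigs 1 and 2 lay below the lowest pig of HHD_S, and the ranges overlapped. The mean was 31.5 ± 7.52 CPM in WD_S, 43.3 ± 10.4 CPM in HHD_S and 42.3 ± 7.79 CPM in HHD (SD; n = 7, 8 and 7). The log2 fold change was -0.49 (SE 0.169) in WD_S over HHD_S, 0.03 (SE 0.164) in HHD_S over HHD and -0.45 (SE 0.176) in WD_S over HHD. MSMO1 had a log2 fold change of -0.65 within pool 3 and -0.29 within pool 4 in WD_S over HHD_S.

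NSDHL, the dehydrogenase that decarboxylates the product of MSMO1 (chromosome X, 123906130 to 123921935), varied least within WD_S. Its level was 15.6, 17.3 and 20.7 CPM in WD_S (lowest, median and highest), against 16.6, 19.2 and 30.4 CPM in HHD_S and 16.2, 23.3 and 31.3 CPM in HHD. The SD was 10.7% of the mean in WD_S, against 21.8% in HHD_S and 21.0% in HHD. All 7 WD_S pigs and 7 of 8 HHD_S pigs lay below the HHD median. The log2 fold change was -0.19 (SE 0.138) in WD_S over HHD_S, -0.20 (SE 0.135) in HHD_S over HHD and -0.39 (SE 0.143) in WD_S over HHD. Without HHD pig 4 it was -0.08 in HHD_S over HHD and -0.25 in WD_S over HHD, and without HHD_S pig 7 it was -0.09 in WD_S over HHD_S. Its group means were 17.6 ± 1.88 CPM in WD_S, 20.2 ± 4.41 CPM in HHD_S and 23.3 ± 4.90 CPM in HHD (SD), with gaps between neighbouring groups no wider than the SD of either heart healthy group.

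HSD17B7, the ketosteroid reductase that completes the same demethylation (chromosome 4, 87720747 to 87743037), had a level of 13.3, 17.4 and 23.0 CPM in WD_S (lowest, median and highest), against 17.2, 20.0 and 26.7 CPM in HHD_S and 14.7, 19.3 and 38.7 CPM in HHD. The HHD range was set at its top by HHD pig 5. With that pig the log2 fold change of HSD17B7 in WD_S over HHD was -0.28 (SE 0.188), and without it -0.01. In WD_S over HHD_S the log2 fold change was -0.20 (SE 0.183), and -0.16 without that pig.

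SC5D, the desaturase acting on lathosterol (chromosome 9, 48357115 to 48372391), spanned 21.9, 38.9 and 65.8 CPM in WD_S (lowest, median and highest), against 20.1, 48.8 and 60.9 CPM in HHD_S and 35.1, 45.1 and 65.1 CPM in HHD. WD_S pigs were found at both ends of the scale, 2 of them above every HHD_S pig. Its log2 fold change in WD_S over HHD_S was -0.10 (SE 0.232), 0.03 without WD_S pig 1 and -0.30 without WD_S pig 3. DHCR7, the reductase that forms cholesterol from its dehydro precursor (chromosome 2, 2377352 to 2391846), spanned 10.96, 16.9 and 23.9 CPM in WD_S, against 7.32, 22.1 and 29.1 CPM in HHD_S and 11.2, 18.8 and 24.3 CPM in HHD. In HHD_S its SD was 45.8% of the mean, and pigs fell both below and above all HHD pigs (3 and 2 of 8). Its log2 fold change in WD_S over HHD_S was -0.20 (SE 0.272), -0.47 without HHD_S pigs 3 and 8, -0.09 without HHD_S pig 7 and 0.01 in pool 4 alone.

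Counted together, 7 of the 8 enzymes had a negative log2 fold change in WD_S over HHD_S, with a median of -0.19, where 52.9% of all genes tested were negative with a median of -0.01. Without HHD_S pigs 3 and 8 all 8 were negative, with a median of -0.27, and in pool 4 alone 6 of 8 were, with a median of -0.08. In WD_S over HHD 7 of 8 were negative with a median of -0.26, and in HHD_S over HHD 4 of 8 were negative with a median of -0.0027. Apart from SQLE, MSMO1 and, in WD_S over HHD, NSDHL, each log2 fold change of the enzymes in those contrasts was under 2 standard errors. The edgeR quasi-likelihood test called 0 of the 8 in WD_S over HHD_S at an adjusted p of 0.05, where it called 0% of all genes tested, with 398 genes at an unadjusted p under 0.05. In HHD_S over HHD it called 0 of the 8 beside 0% of the tested genes, 247 of which had an unadjusted p under 0.05. In WD_S over HHD it called 0 of the 8 beside 0.00734% of the tested genes (1 gene, the sterol exporter gene ABCG1), with 465 at an unadjusted p under 0.05. DESeq2 called 4 genes in WD_S over HHD_S (0.0294%), SQLE among them, 1 in HHD_S over HHD (0.00734%) and 2 in WD_S over HHD (0.0147%), with no enzyme in the last 2 contrasts. limma with quality weights called 1, 0 and 1 genes in the same contrasts (0.00734%, 0% and 0.00734%), none of them an enzyme of the list. No enzyme had groups without overlap, beside 0.0147% of genes in WD_S over HHD_S, 0.0147% in HHD_S over HHD and 0.0661% in WD_S over HHD. Since the enzymes were picked with these contrasts in view, nothing is read from these counts.

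SQLE was also set against its own pathway within each pig, as its log2 CPM minus the mean log2 CPM of the other 7 enzymes. The size of this offset depends on gene lengths, and its comparison between groups does not. SQLE minus the others was -2.01 ± 0.551 in WD_S, -0.77 ± 0.527 in HHD_S and -0.79 ± 0.410 in HHD (SD; n = 7, 8 and 7). The WD_S pigs ran from -2.56 to -1.08, the HHD_S pigs from -1.59 to -0.06 and the HHD pigs from -1.45 to -0.29, so the highest WD_S pigs again reached the lowest pigs of the other groups. The difference was -1.24 (SE 0.280) in WD_S over HHD_S and 0.02 (SE 0.242) in HHD_S over HHD. The mean of the other 7 had a difference of -0.17 (SE 0.125) and -0.03 (SE 0.133) in the same contrasts. In WD_S over HHD, SQLE minus the others had a difference of -1.22 (SE 0.260) and the mean of the other 7 one of -0.20 (SE 0.0936).

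**Figure D2:**
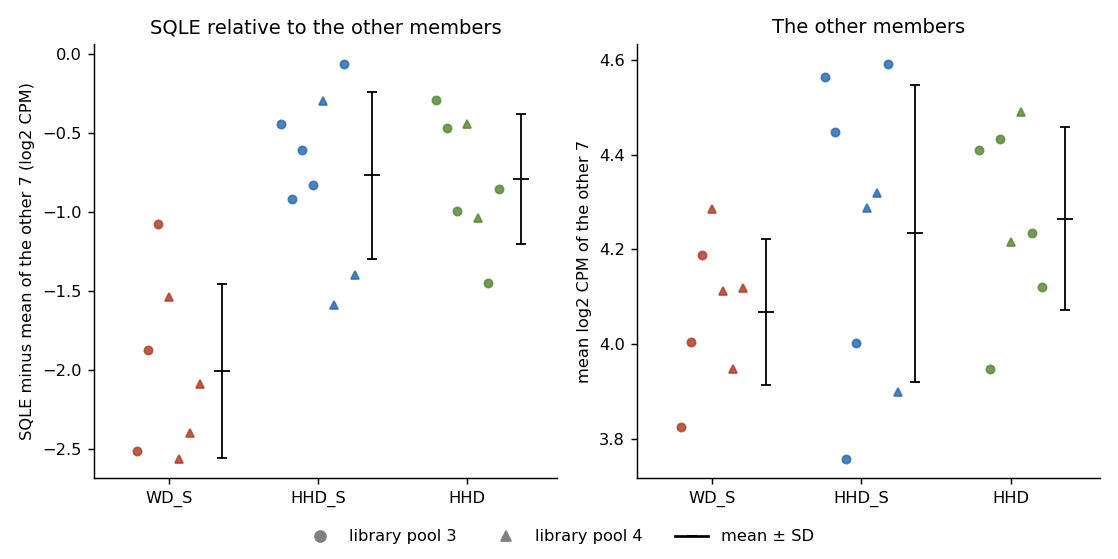
Left, log2 CPM of SQLE minus the mean log2 CPM of the other 7 enzymes in each pig (y axis) by diet group; right, that mean itself. Bars are mean ± SD, circles pool 3 and triangles pool 4; the left panel sets WD_S (mean -2.01) apart from HHD_S (-0.77) and HHD (-0.79), and the right panel shows the groups overlapping at 4.07, 4.23 and 4.26.

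The neighbouring parts of sterol metabolism were described by 6 lists, each gene counted and up to 3 per list named, those with the largest log2 fold changes in WD_S over HHD_S. No gene of these lists was called in WD_S over HHD_S or in HHD_S over HHD by edgeR, which called 0% of all genes tested in both. DESeq2 and limma each called ABCG1 in WD_S over HHD_S, where they called 0.0294% and 0.00734% of all genes tested. All 7 mevalonate enzymes, which act upstream of squalene, had negative log2 fold changes in WD_S over HHD_S, with a median of -0.21, while in WD_S over HHD 5 of 7 were negative, with a median of -0.03. They included HMGCS1, the synthase that makes HMG-CoA, with a mean of 46.4 ± 11.2 CPM in WD_S, 68.0 ± 28.4 CPM in HHD_S and 68.9 ± 18.2 CPM in HHD (SD) and a log2 fold change of -0.54 (SE 0.223) in WD_S over HHD_S, or -0.25 in pool 4 alone. In the same contrast the log2 fold change was -0.45 (SE 0.235) for ACAT2, a thiolase that joins acetyl-CoA units, and -0.41 (SE 0.210) for IDI1, the isopentenyl diphosphate isomerase. ACAT2 was at -0.29 without HHD_S pig 5, and IDI1 at -0.23 without HHD_S pig 7 and -0.15 in pool 4 alone. Of 6 further late enzymes 5 were negative, with a median of -0.20, and 4 were in WD_S over HHD, with a median of -0.14. Among these, the log2 fold change was -0.39 (SE 0.161) for EBP, the sterol isomerase, and -0.21 (SE 0.269) for CYP51A1, the lanosterol demethylase. EBP was at -0.14 in pool 4 alone, and CYP51A1 ran from -0.40 without WD_S pig 3 to -0.06 without WD_S pig 1. In pool 4 alone 5 of the 7 mevalonate enzymes and 4 of the 6 late ones were negative, and without HHD_S pigs 3 and 8 all of both lists were. None of these upstream or late enzymes had as low a value as SQLE.

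The regulators did not share one sign. Of 7 genes of the SREBP machinery 5 were negative in WD_S over HHD_S (4 with RLE scaling), with a median of -0.03. In WD_S over HHD the count turned round, with 5 of 7 positive and a median of 0.05. SREBF2 had a mean level of 81.5 ± 11.03 CPM in WD_S, 104 ± 33.6 CPM in HHD_S and 103 ± 20.6 CPM in HHD (SD), with a log2 fold change of -0.34 (SE 0.179) in WD_S over HHD_S. SREBF1, whose products act mainly on fatty acid genes, was at 0.89 (SE 0.456) in the same log2 contrast (0.53 without HHD_S pigs 3 and 8), and INSIG1, which holds SREBPs in the endoplasmic reticulum, at 0.39 (SE 0.320) with all pigs and -0.04 in pool 4 alone. All 4 genes for turnover of SQLE protein were positive but close to 0, with a median of 0.03, 3 of 4 were positive with total-count scaling, and 2 of 4 were in pool 3 alone (median 0.01) and without HHD_S pigs 3 and 8 (median 0.0019). They include MARCH6, the ubiquitin ligase for SQLE in human cells, at 0.10 (SE 0.120) on the log2 scale, and the conjugating enzyme genes UBE2G2 and UBE2J2, with 0.04 (SE 0.0868) and 0.03 (SE 0.0833).

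Of 6 genes for uptake and esterification 5 were positive in WD_S over HHD_S (4 with total-count scaling), with a median of 0.09. Without HHD_S pigs 3 and 8 the count was 2 of 6 and the median -0.06, and by limma with quality weights 2 of 6 and -0.04. The log2 fold change was 0.80 (SE 0.638) for SCARB1, a lipoprotein receptor, -0.31 (SE 0.171) for NPC1, which moves cholesterol out of lysosomes, and 0.14 (SE 0.309) for NPC1L1, the intestinal cholesterol importer. Without HHD_S pigs 3 and 8 SCARB1 was at 0.42 and NPC1L1 at -0.12, and NPC1L1 was already at -0.01 without HHD_S pig 8 alone and at 0.31 without HHD_S pig 2. All 6 genes around LXR, the nuclear receptor that responds to oxysterols, and sterol efflux were positive, with a median of 0.16. By limma with quality weights 3 of 6 were positive (median 0.09), and 4 of 6 were without HHD_S pigs 3 and 8 (median 0.08). ABCG1, an LXR target that exports sterols, had a mean of 31.9 ± 5.67 CPM in WD_S, 19.1 ± 3.91 CPM in HHD_S and 17.8 ± 2.02 CPM in HHD (SD). The log2 fold change of ABCG1 was 0.74 (SE 0.128) in WD_S over HHD_S and 0.84 (SE 0.135) in WD_S over HHD, and its call in the second contrast was lost in 17 of 22 single omissions. In WD_S over HHD_S the log2 fold change was 0.45 (SE 0.297) for MYLIP, another LXR target, and 0.23 (SE 0.239) for NR1H3, which encodes LXR alpha and had 5 to 21 reads per library. Leaving out HHD_S pig 2 put MYLIP at 0.68, and leaving out WD_S pig 1 put NR1H3 at 0.12. Members of these lists in HHD_S over HHD had medians between 0.02 and 0.06 on the log2 scale.

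**Figure D3:**
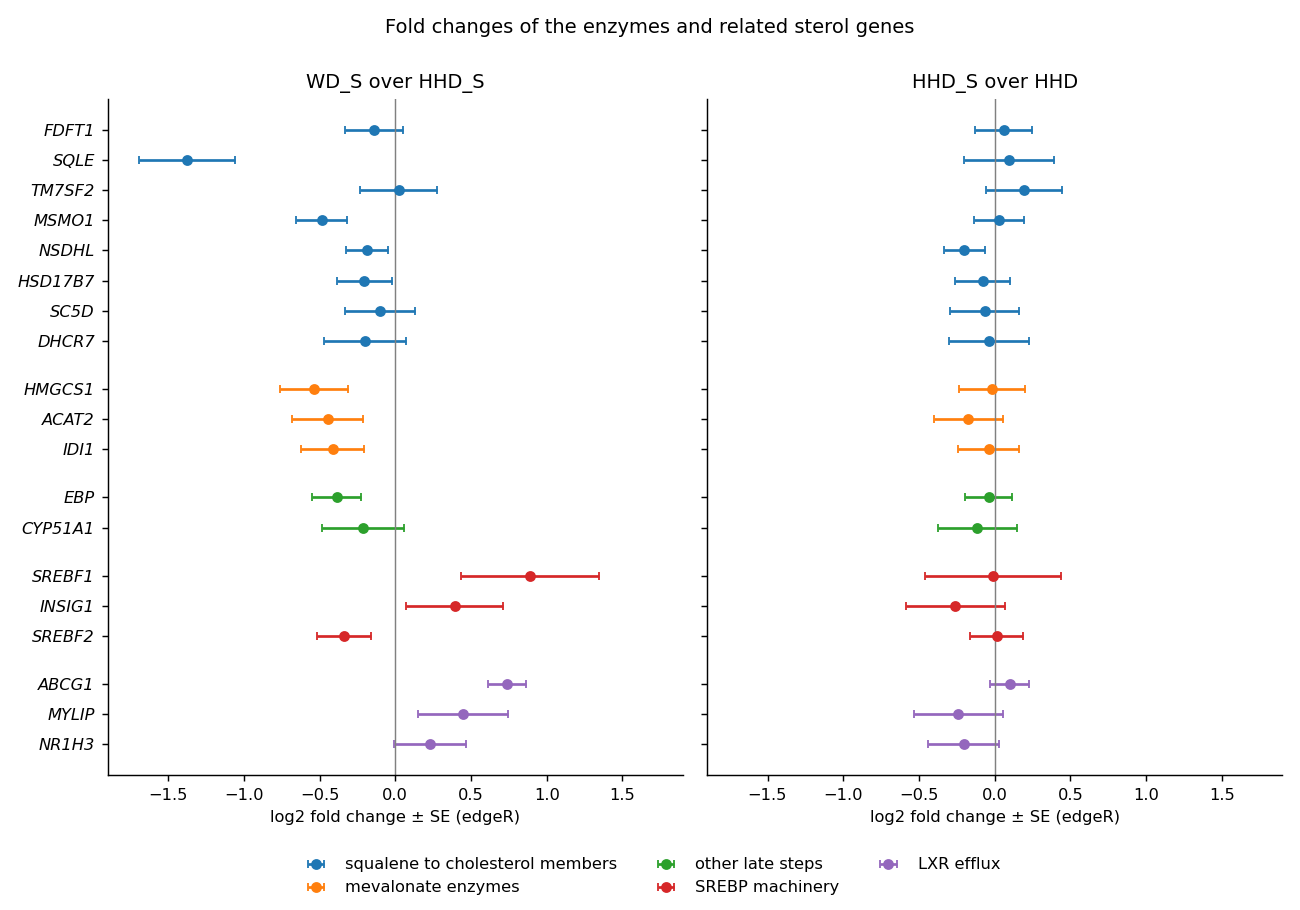
log2 fold change ± SE (x axis, edgeR) of the 8 enzymes and of the named genes of 4 neighbouring lists, in WD_S over HHD_S (left) and HHD_S over HHD (right). SQLE lies farthest left at -1.38 in the left panel and near 0 at 0.09 in the right one.

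Whether the enzymes vary together among pigs fed alike was asked by Pearson correlation of log2 CPM after subtracting each group's mean, over all 22 libraries, with two-sided permutation p values from 100000 shuffles within groups. The 28 pairs among the 8 enzymes share library scaling. Of them 21 were positive, with a median r of 0.23 and a range of -0.33 to 0.77. An adjusted p of 0.05 over the 28 pairs was passed by 5 pairs with Pearson's r and 4 with Spearman's rho. The share of pairs among all genes tested that would pass was not computed, so these counts have no background beside them. SQLE and SC5D had r = 0.643 (permutation p = 0.0037, adjusted 0.0235) and rho = 0.698 (permutation p = 0.00138, adjusted 0.0193). The relation had the same sign in each group, with r = 0.762 in WD_S, 0.523 in HHD_S and 0.707 in HHD, and within the pools, with r = 0.726 in pool 3 and 0.678 in pool 4. Without the 2 pigs farthest from the median of group-centred SQLE, WD_S pig 3 and HHD_S pig 7, it was r = 0.591 (permutation p = 0.0112). In such omissions of 2 pigs the group means of all 22 libraries were kept. Leaving out WD_S pig 1, WD_S pig 3 or HHD pig 1 put its adjusted p above 0.05, at most at 0.0593, and r over the 22 single omissions stayed between 0.580 and 0.698.

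SQLE and MSMO1 had r = 0.620 (permutation p = 0.0042, adjusted 0.0235) and rho = 0.599 (permutation p = 0.00601, adjusted 0.0421). It was r = 0.595 in WD_S, 0.622 in HHD_S and 0.693 in HHD, and 0.816 in pool 3 and 0.558 in pool 4. Without the 2 pigs farthest from the median of group-centred SQLE, r was 0.460 (permutation p = 0.0485). The call was lost without WD_S pig 1, WD_S pig 3, HHD pig 1 or HHD_S pig 7, the last of which gave r = 0.535 and an adjusted p of 0.12. Within the 17 pigs numbered below 2356, a cut chosen after the data were seen, r was 0.562 with an adjusted p of 0.172.

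The closest pair was MSMO1 and SC5D, with r = 0.773 (permutation p = 0.00022, adjusted 0.00616) and rho = 0.724 (permutation p = 0.00055, adjusted 0.0154), a call that held in all 22 single omissions. Without the 2 pigs farthest from the median of group-centred MSMO1 it was r = 0.592 (permutation p = 0.00585). SC5D and DHCR7 had r = 0.603 (permutation p = 0.0035, adjusted 0.0235) and rho = 0.536 (permutation p = 0.0107, adjusted 0.0598), and the call on r was lost without WD_S pig 1 or HHD_S pig 3, with r = 0.485 without the second. FDFT1 and DHCR7 had r = 0.597 (permutation p = 0.00281, adjusted 0.0235) and rho = 0.609 (permutation p = 0.00311, adjusted 0.0290), lost without WD_S pig 1 (adjusted p = 0.0573). Without HHD_S pigs 3 and 8 together, SC5D and DHCR7 had r = 0.392 and FDFT1 and DHCR7 r = 0.533, neither past the threshold, while SQLE kept its calls with SC5D (r = 0.658) and MSMO1 (r = 0.652). Within the pigs numbered below 2356 FDFT1 and DHCR7 had r = 0.616 and missed the threshold (adjusted p = 0.0586).

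**Figure D4:**
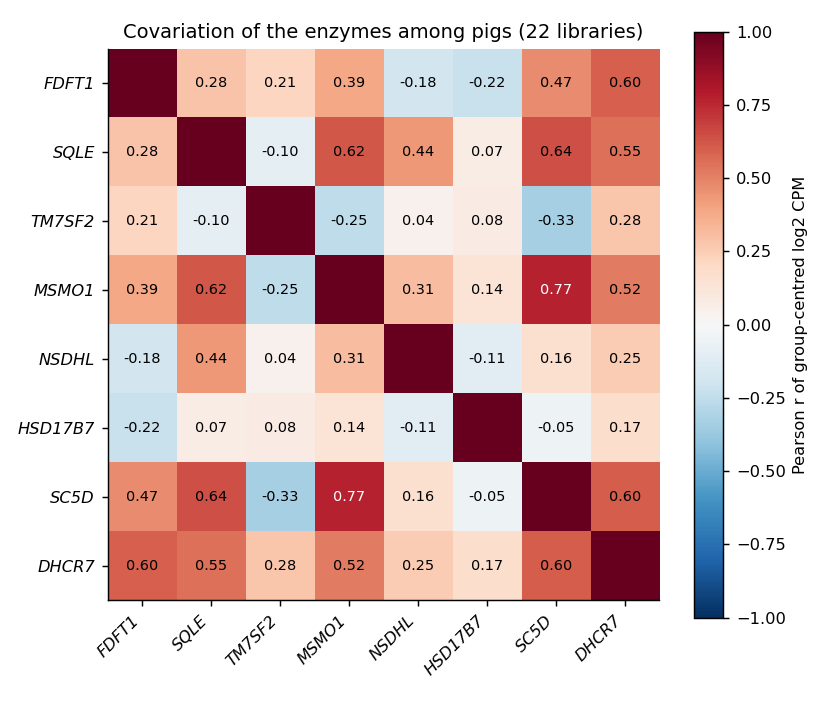
Pearson r of group-centred log2 CPM (colour scale from -1 to 1, value printed in each cell) between the 8 enzymes over 22 libraries, in pathway order on both axes. SQLE, MSMO1, SC5D and DHCR7 share darker cells (0.52 to 0.77), as do FDFT1 and DHCR7 (0.60), and TM7SF2 and HSD17B7 stay between -0.33 and 0.28 with every other enzyme.

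SQLE and DHCR7 had r = 0.549 (permutation p = 0.0226, adjusted 0.0906) and did not pass, and r was -0.240 within HHD. SQLE and NSDHL had r = 0.437 (permutation p = 0.0375, adjusted 0.117), and the groups differed in sign, with r = -0.551 in WD_S, 0.767 in HHD_S and 0.770 in HHD, a difference between groups that was not tested. SQLE with FDFT1 gave r = 0.282 (adjusted 0.456), with HSD17B7 r = 0.0744 and with TM7SF2 r = -0.0963. DHCR7 had the highest mean r with the other 7, at 0.425, and TM7SF2 the lowest, at -0.0082. Over the other 7 enzymes the median r with SQLE was 0.44, where all 13625 other genes tested had a median of -0.01, and 4 of the 7 lay in the top 5% of those genes. HHD_S pig 7, the highest of all pigs for SQLE, MSMO1 and DHCR7, contributed to this median, which was 0.30 without it.

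Of the 36 pathway genes outside the list, 5 correlated with SQLE past an adjusted p of 0.05 over the 36. Over all 13625 other genes tested r with SQLE ran from -0.76 to 0.78, and the share of them that would pass was not computed. ACAT2 had r = 0.779 (permutation p = 8e-05, adjusted 0.00288) and rho = 0.763 (permutation p = 0.00011, adjusted 0.00396). Within groups its r was 0.835 in WD_S, 0.862 in HHD_S and 0.684 in HHD, within pools 0.750 and 0.848, and the call held in all 22 single omissions. EBP had r = 0.698 (permutation p = 0.00039, adjusted 0.00702) and rho = 0.671 (permutation p = 0.00122, adjusted 0.0220). HMGCS1 had r = 0.689 (permutation p = 0.00068, adjusted 0.00816) and rho = 0.642 (permutation p = 0.00227, adjusted 0.0272). The EBP and HMGCS1 calls were lost without HHD_S pig 7, with adjusted p of 0.0547 for EBP and 0.0578 for HMGCS1.

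IDI1 had r = 0.600 (permutation p = 0.00256, adjusted 0.0230) and rho = 0.569 (permutation p = 0.00446, adjusted 0.0401), lost without HHD pig 6, HHD_S pig 7 or HHD_S pig 8, with r = 0.471 without HHD_S pig 7. ABCG1 was the one that ran against SQLE, with r = -0.613 (permutation p = 0.0065, adjusted 0.0468) and rho = -0.542 (permutation p = 0.0198, adjusted 0.142). Its r was negative in each group, at -0.554 in WD_S, -0.710 in HHD_S and -0.451 in HHD, and in each pool, at -0.688 and -0.551. The ABCG1 call was weak, since 13 of the 22 single omissions put its adjusted p above 0.05 (at most 0.194, without HHD_S pig 8). Without the 2 pigs farthest from the median of group-centred SQLE, r with SQLE was 0.772 for ACAT2 (permutation p = 0.00029) and 0.694 for EBP (permutation p = 0.00084). With the same pigs left out it was 0.566 for HMGCS1 (permutation p = 0.0109), 0.469 for IDI1 (permutation p = 0.0283) and -0.516 for ABCG1 (permutation p = 0.0339). Without HHD_S pigs 3 and 8 the calls with ACAT2 (r = 0.728), EBP (r = 0.642) and HMGCS1 (r = 0.658) held, and those with IDI1 (r = 0.507) and ABCG1 (r = -0.494) did not. Within the pigs numbered below 2356 the calls with EBP (adjusted p = 0.0653), IDI1 (adjusted p = 0.18) and ABCG1 (adjusted p = 0.307) were lost. Within pools 3 and 4 r was 0.741 and 0.638 for EBP, 0.754 and 0.655 for HMGCS1, and 0.666 and 0.398 for IDI1. SCAP, which escorts SREBPs to the Golgi, had r = -0.579 with SQLE (permutation p = 0.00869, adjusted 0.0521) and did not pass, nor did SREBF2 and CYP51A1, with r of 0.515 and 0.526 (adjusted 0.136 each).

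**Figure D5:**
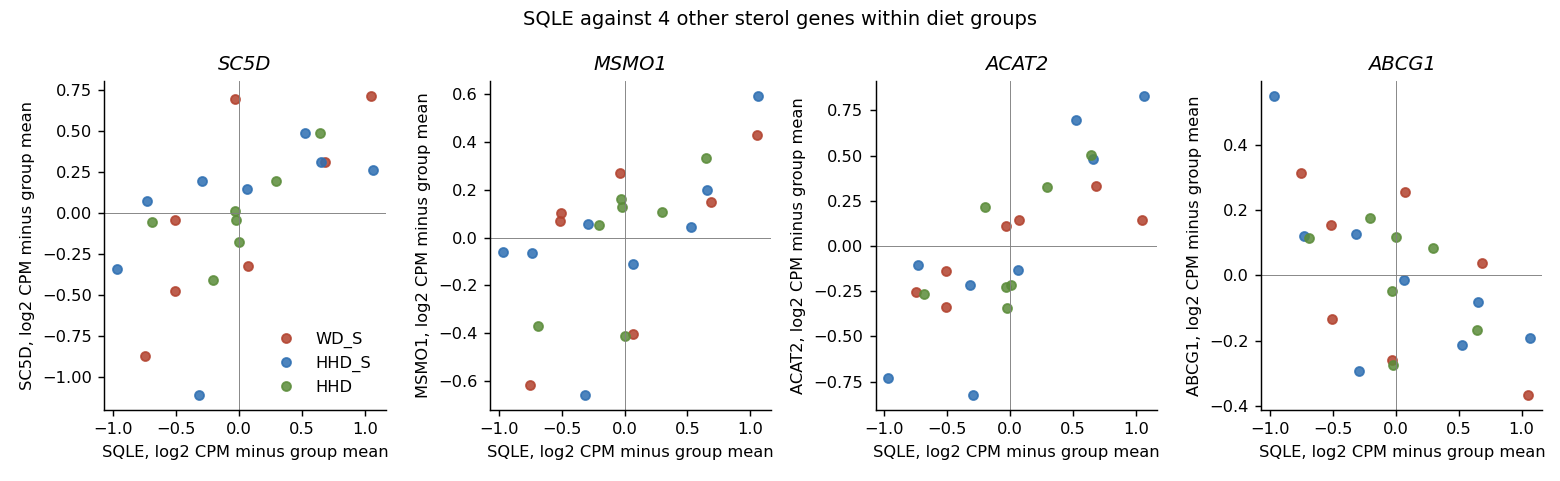
log2 CPM minus the group mean of SQLE (x axes) against the same quantity for SC5D, MSMO1, ACAT2 and ABCG1 (y axes), one point per pig, coloured by diet group. The points climb to the right for SC5D (r = 0.643), MSMO1 (r = 0.620) and ACAT2 (r = 0.779) and descend for ABCG1 (r = -0.613).

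Among all 13625 other genes, the 8 named genes above a mean log2 CPM of 1 whose pattern was most like that of SQLE were found by Pearson r of log2 CPM centred on group and pool means, over 22 libraries. They were ACAT2 (r = 0.789), ERICH4 (0.742), ARFGAP3 (0.738), P4HB (0.733), TMED7 (0.714), SC5D (0.708), MOV10L1 (0.708) and DHRS1 (0.706). ACAT2 ranked first of all genes, SC5D 7th and MSMO1 11th (r = 0.702). These values are descriptions, since the highest of many correlations are high by selection.

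Markers of cell types were read beside the SQLE values. In WD_S over HHD_S, 5 of 7 enterocyte markers were positive, with a median log2 fold change of 0.16. All 4 T cell markers were negative, with a median of -0.23, and all 6 macrophage markers were positive, with a median of 0.21. Medians of the other lists were 0.25 for goblet, 0.19 for crypt stem, 0.18 for fibroblast and 0.16 for B and plasma cell markers. They were 0.12 for smooth muscle, 0.12 for enteroendocrine, -0.0048 for dividing cell and 2.20 for the 2 distal small intestine markers. Summed T cell markers were at 168 to 367 CPM in WD_S, 159 to 432 CPM in HHD_S and 235 to 362 CPM in HHD. None of the 11 marker lists correlated with SQLE within groups past an adjusted p of 0.05 over the 11. The nearest were the enterocyte list, with r = 0.494 (permutation p = 0.0319, adjusted 0.185), and the T cell list, with r = 0.516 (permutation p = 0.0337, adjusted 0.185). The part of cell composition in the SQLE difference between groups was not tested.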

How the data were processed

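The deposited files give each gene's count of uniquely mapped exon reads, per the file headers. Per the labels' protocols, TruSeq version 2 libraries from jejunal RNA (quality indicator above 8) were read as single 150-base reads and processed in a CLC workbench against Sus scrofa 11.1. The sources used here give no mapping settings and no strand handling. Each library is a separate pig, and groups follow the diet label. The files name 17332 genes, and a table of names gave 1050 more. The smallest reduced chi-square over 231 pairs of libraries was 24.7, so none agreed within sampling noise.

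Counts were fitted with edgeR 4.0.16 in R 4.3.3 (filterByExpr, minimum count 10, TMM, quasi-likelihood with robust estimation) over all 22 libraries with group and library pool as terms, with 18 residual degrees of freedom (biological coefficient of variation 25.9%). Pools come from the names of the deposited files. A standard error is the log2 fold change divided by the root of its F statistic. Adjusted p values are Benjamini-Hochberg values over 13626 genes. Correlations used log2 CPM with a prior count of 2 in Python 3.11.15 with numpy 2.4.6, where the smallest possible permutation p is 1e-05. The fit was tested on simulated data. Alternatives were DESeq2 1.42.0, limma 3.58.1 with quality weights, other scalings and filters, other terms, each pool alone and each library left out. Among the pathway genes, depth limits precision most for TM7SF2, NR1H3 and FDPS. The last, a mevalonate enzyme counted above but named only here, had 12 to 37 reads per library in WD_S. Reads from paralogs or overlapping genes are uncertain where unique mapping or strand could split them.

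The enzymes, the lists and the rule for named genes were chosen with earlier results of these data known. Named are all enzymes of the list, up to 3 genes per neighbouring list by the size of the log2 fold change in WD_S over HHD_S, and the 8 genes most like SQLE. One gene that the rule names is not reported here. Among the correlations, the genes past the threshold over 36 pathway genes are named, and SCAP, CYP51A1 and SREBF2 were named after their values were seen. Gene spans are RefSeq annotations of Sscrofa11.1, matched by symbol for all 8 enzymes. Markers were read as 11 lists, and 2 markers of dividing cells and 1 of enterocytes were not used here.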

Additional observations from a re-analysis of the deposited data

Results flagged for a closer look

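NSDHL in HHD_S pig 7 was flagged because that pig, at 30.4 CPM, lay far above the next HHD_S pig at 21.7 CPM, a gap of 0.628 of the group's whole range. The same pig was the highest of HHD_S for SQLE, MSMO1, HSD17B7 and DHCR7. Chance flags about 1 in 20 groups, and 24 groups (8 enzymes in 3 diet groups) were examined. Without this pig the log2 fold change of NSDHL was -0.09 in WD_S over HHD_S and -0.31 in HHD_S over HHD.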

How the results depend on the processing

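SQLE kept a negative log2 fold change in all 35 alternatives, between -1.61 (without WD_S pig 3) and -1.19 (pool 4 alone) in WD_S over HHD_S and between -1.58 and -1.13 in WD_S over HHD; in HHD_S over HHD it ran from -0.38 (pool 4 alone) to 0.32 (pool 3 alone). The median of the enzymes stayed negative in all 35 alternatives for both WD_S contrasts, from -0.38 (limma) to -0.08 (pool 4 alone) in WD_S over HHD_S, and -0.11 without HHD_S pig 7. In HHD_S over HHD it moved to -0.24 in pool 4 alone and kept its sign in 24 of 35. Genes called in WD_S over HHD_S numbered 2 without the pool term, 4 by DESeq2, 1 by limma, 1 without HHD_S pigs 3 and 8, 2 without the 5 pigs numbered from 2356 up, and 0 to 2 with single libraries left out (2 without WD_S pig 7, 1 without WD_S pig 3, HHD pig 7 or HHD_S pig 8). In HHD_S over HHD DESeq2 called 1. In WD_S over HHD, where ABCG1 was called, the count was 0 with total counts, 0 in pool 3 alone, 0 in pool 4 alone, 2 by DESeq2 and 0 to 1 with single libraries left out, and the call was kept only without WD_S pig 3, WD_S pig 7, HHD_S pig 4, HHD_S pig 7 or HHD_S pig 8. The causes were not tested. The median r of SQLE with the other enzymes lay between 0.30 and 0.56 with single libraries left out. Leaving out HHD_S pigs 3 and 8, and the pigs numbered from 2356 up, were alternatives chosen after seeing the data; SQLE in WD_S over HHD_S was -1.57 and -1.30 under them. No paired analysis was possible because the labels give each pig only its own number, which occurs once, and the replicate numbers used here name pigs in accession order and pair none.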

Other observations

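Within WD_S the mean log2 CPM of the enterocyte markers and the SQLE level had r = 0.957 over 7 pigs, the highest of 33 such values (11 marker lists in 3 groups), against 0.380 in HHD_S and 0.344 in HHD. The next highest of the 33 was 0.797 and the lowest -0.564. This value was picked after all 33 were seen, and the difference between groups was not tested.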
